A study of Mus musculus with 6 samples.

Results

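Acinar cells of the exocrine pancreas secrete digestive enzymes when hormones and nerves tell them to, and 10 genes of that stimulus pathway are described here in mouse acinar cultures with and without the secreted glycoprotein DKK3. The genes were chosen by name, with earlier results of these data known. They comprise 5 receptors (Cckar, Chrm1, Chrm3, Sctr and Vipr1) and the 3 IP3 receptor genes (Itpr1, Itpr2 and Itpr3). The others are the plasma membrane calcium channel gene Orai1 and the calcium pump gene Atp2a2. These 10 are among the 56953 genes in the table of counts. All 10 had counts in every library, and 9 passed the filter on low counts, which kept 14738 genes. Sctr did not pass, so it was fitted in a second run of the model without that filter.

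Primary acini were embedded in Matrigel and kept to day 3 of an ex vivo assay of acinar-to-ductal metaplasia (ADM), the loss of secretory features and gain of duct-like ones by explanted acini. Each of 3 groups had 2 bulk RNA-seq libraries: acini of wild-type mice (WT), acini of Dkk3 knockout mice (DD), and DD acini given recombinant DKK3 protein (DD + rDKK3). All cultures shared Waymouth medium with serum, a trypsin inhibitor and the glucocorticoid dexamethasone, so a protease inhibitor and a steroid were present in the controls too. No secretagogue was labelled as added. The knockout allele was ubiquitous rather than limited to acinar cells. The labelled ages were 10 and 11 weeks for WT, 12 and 13 for DD, and 14 and 15 for DD + rDKK3, a rise of 1 week from each library to the next that may not reflect recorded ages. Taken as labelled, age and group cannot be told apart. WT 2 was labelled female while the other libraries were labelled male. No WT culture with rDKK3 was analysed here, so the protein was compared on the knockout background alone. The labels name no animals. Within each group the labelled ages differ, nothing else says whether cultures were separate, and each DD + rDKK3 title carries the name of 1 DD library. The p-values measure the spread between these libraries.

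Library totals ran from 12018473 to 19750401 counts. Values are given as CPM, the count normalised to the TMM-scaled total of its library, in the order WT 1, WT 2, DD 1, DD 2, DD + rDKK3 1 and DD + rDKK3 2 wherever 6 values follow each other. The targeted gene Dkk3 had 10, 1, 11, 9, 5 and 5 counts, and because the allele lacks exon 2 while counts were summed over the whole gene, these counts do not check the labels. All 18 acinar markers were detected in every library. Their summed level was 151700 to 199800 CPM for WT, 113700 to 127200 for DD and 124400 to 152300 for DD + rDKK3. Markers of fibroblasts and stellate cells summed to 38.28 and 111.2 CPM in WT, and stood apart in DD 2 at 728.8 CPM and DD + rDKK3 2 at 817.5 CPM against 59.96 and 146.7 CPM in DD 1 and DD + rDKK3 1. Macrophage markers were also highest in those 2 libraries (227.4 and 176.4 CPM, against 57.18 to 112.1 in the other 4), while endothelial (117.2 to 191.9 CPM) and smooth muscle markers (15 to 30.45 CPM) overlapped between groups. Islet markers in DD + rDKK3 (261.5 and 161 CPM) lay below both WT libraries (285.1 and 270.4 CPM), and DD (194.6 and 297.1 CPM) overlapped both; their part in the results was not tested. Results of the 10 genes are therefore also given without DD 2 and DD + rDKK3 2. This was done where a direction turned or an unadjusted p rose from under 0.05 to above it. The difference of Itpr3 in DD against WT is also given, though neither held for it. Without those 2 libraries, Itpr2 in DD against WT crossed that level the other way. DD and DD + rDKK3 then hold 1 library each, assumed to vary like the WT libraries, and the p-values rest on the spread of WT alone. Where 1 library is left out, the lone library of its group is likewise assumed to vary like those of the other groups. In bulk samples, fewer cells of a type and less RNA per cell cannot be told apart.

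Cholecystokinin and acetylcholine are the main secretagogues of acinar cells. Their receptors, CCKAR and the muscarinic receptors CHRM3 and CHRM1, couple through Gq to phospholipase C, which makes the second messenger IP3. IP3 opens IP3 receptors, calcium channels of the endoplasmic reticulum that in acinar cells are concentrated toward the apical pole, where the calcium rise drives exocytosis. The SERCA2 pump encoded by Atp2a2 returns calcium to the reticulum, and ORAI1 lets calcium in from outside when the store runs low. Secretin and vasoactive intestinal peptide act through SCTR and VIPR1, which couple mainly to Gs and cyclic AMP, and cyclic AMP strengthens secretion in acinar cells and drives fluid and bicarbonate secretion in ducts.

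The start sites of 5 of the 10 genes were found in the RefSeq promoter table (build GRCm38.p6), and those of Chrm3, Itpr2 and Itpr3 are shown because these 3 had an unadjusted p under 0.05 in DD + rDKK3 against WT. Each sequence is the 250 bases before the transcription start, written 5′ to 3′ on the gene's own strand. Capitals mark the letters CANNTG (N for any base), the E-box core bound by basic helix-loop-helix factors, a class that includes the acinar factors PTF1A and BHLHA15; the pattern reads as CANNTG on both strands, and no site overlapped another.
Chrm3, chr13:10360804-10361053, minus strand: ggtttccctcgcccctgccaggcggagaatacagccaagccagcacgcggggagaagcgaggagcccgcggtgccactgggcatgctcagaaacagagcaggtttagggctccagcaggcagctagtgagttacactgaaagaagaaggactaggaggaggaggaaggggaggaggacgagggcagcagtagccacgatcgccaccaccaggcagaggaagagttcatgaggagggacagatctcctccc
Itpr2, chr6:146502224-146502473, minus strand: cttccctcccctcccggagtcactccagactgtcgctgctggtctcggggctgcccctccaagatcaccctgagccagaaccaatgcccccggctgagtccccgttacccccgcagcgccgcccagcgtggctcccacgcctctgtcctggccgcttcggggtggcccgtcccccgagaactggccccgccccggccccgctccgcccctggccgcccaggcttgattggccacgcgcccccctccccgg
Itpr3, chr17:27057054-27057303, plus strand: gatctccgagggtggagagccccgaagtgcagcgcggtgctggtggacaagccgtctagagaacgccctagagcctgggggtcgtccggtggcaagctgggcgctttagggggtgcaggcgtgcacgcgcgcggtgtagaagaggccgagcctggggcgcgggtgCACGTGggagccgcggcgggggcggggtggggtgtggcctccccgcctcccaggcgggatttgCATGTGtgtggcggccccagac
The Itpr3 window held CACGTG beginning 85 bases and CATGTG beginning 22 bases before the start, and the windows of Chrm3 and Itpr2 held no CANNTG. Of all 32851 promoter windows in the table, 66.2% held at least 1 CANNTG, 31.8% held at least 2 and 6.02% held CACGTG, and a match of letters is no evidence of a bound site. Of the other 2 genes with an entry, Orai1 had 1 such hexamer, CAGCTG, beginning 246 bases before its start, and Vipr1 had none. The 3 windows shown were 61.2% (Chrm3), 74.4% (Itpr2) and 72% (Itpr3) G and C, against a median of 52.4% over all promoters. No entry was matched for Cckar, Chrm1, Sctr, Itpr1 or Atp2a2.

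The 10 genes differed widely in level. To set genes side by side, CPM was divided by the length of the gene's exons in kilobases. By this measure Cckar led in all 6 libraries with a mean of 187 CPM per kilobase (range 141 to 255), followed by Atp2a2 at 31.3 (25.1 to 36.5), Itpr3 at 9.13 (5.86 to 11.4), Orai1 at 7.28 (5.76 to 8.96) and Itpr2 at 4.48 (2.68 to 5.56). Chrm3 followed at 3.19 CPM per kilobase (2.56 to 3.78), Vipr1 at 1.24 (0.886 to 1.52), Itpr1 at 0.806 (0.577 to 0.967), Sctr at 0.193 (0.112 to 0.392) and Chrm1 at 0.0725 (0.0365 to 0.114). The order was the same in 5 of 6 libraries, and in WT 1 Orai1 stood above Itpr3. The ranges of Itpr3 and Orai1, of Itpr2 and Chrm3, of Vipr1 and Itpr1 and of Sctr and Chrm1 overlapped over the 6 libraries, while each other pair of neighbours had separate ranges. Within every library Itpr2 nevertheless stood above Chrm3, Vipr1 above Itpr1 and Sctr above Chrm1 (both at 4 to 16 counts), and the order of Itpr3 and Orai1 was not the same in all 6. The figure for Atp2a2 depends on the annotation, because the union of its exons measures 8758 bases and its canonical transcript 4438.

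**Figure D1:**
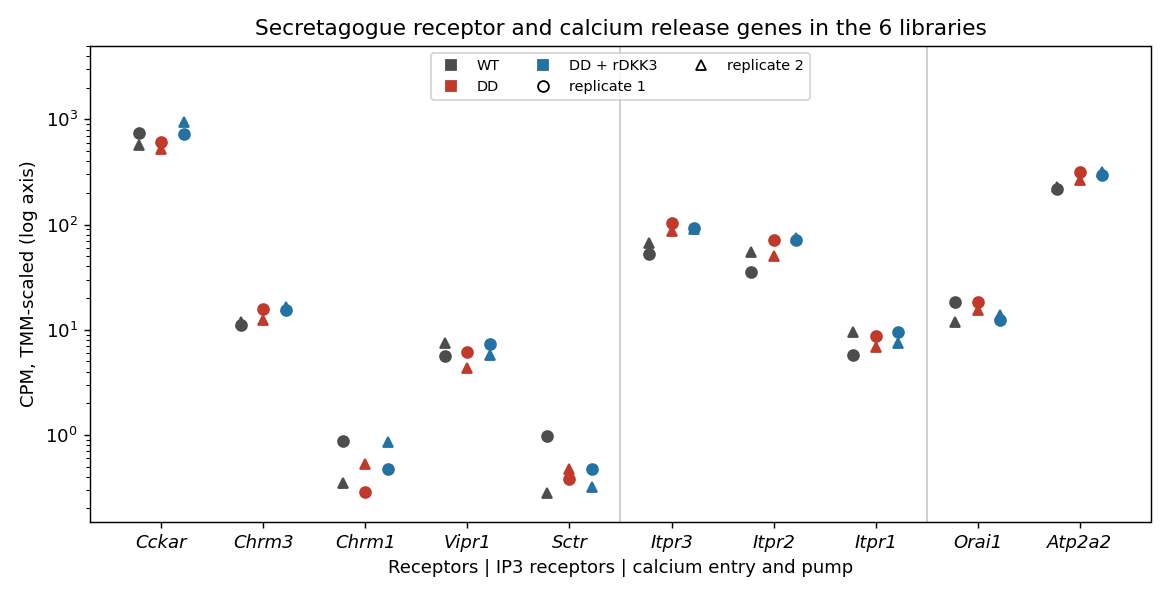
TMM-scaled CPM (log axis) of the 10 genes in the 6 libraries, grouped on the horizontal axis as receptors, IP3 receptors, and calcium entry and pump. Cckar lies between 518.9 and 937.1 CPM and Atp2a2 between 220 and 319.3 CPM, while Chrm1 and Sctr lie below 1 CPM in every library.

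No gene of the 10 was called in any comparison, and the smallest p-values against WT were those of release and refill genes. In DD against WT, 0 of the 9 genes tested passed an adjusted p under 0.05 by edgeR's quasi-likelihood test, where 0.0407% of all genes tested did. Limma-voom also called 0 of the 9, and DESeq2 called 0 of the 8 to which it gave an adjusted p (none for Chrm1). At an unadjusted p under 0.05 there were 2 of 9, both higher in DD (Itpr3 and Atp2a2), against 8.26% of all genes. In 3 of 9 the 2 groups had separate ranges, all higher in DD, against 37.8% of all genes, a share close to that background. The median log2 fold change was 0.16 over the 9 and 0.02 over all genes. In DD + rDKK3 against DD, 0 of 9 were called by edgeR, DESeq2 or limma-voom, with 0% of all genes called by edgeR. Cckar alone of the 9 had an unadjusted p under 0.05 (1.98% of all genes), and 2 of 9 did not overlap between groups (29.5% of all genes). In DD + rDKK3 against WT, 0 of 9 were called by edgeR or limma-voom (0.0475% of all genes by edgeR). DESeq2 called 0 of the 4 to which it gave an adjusted p, and gave none for Chrm1, Chrm3, Vipr1, Itpr1 and Orai1. At the unadjusted level, 4 of 9 had an unadjusted p under 0.05 (Chrm3, Itpr2, Itpr3 and Atp2a2, all higher, against 15.3% of all genes), and those 4 did not overlap between groups (55% of all genes). These 4 calls leaned on single libraries. With 1 library left out, their log2 fold changes ran from 0.44 to 0.53 (Chrm3), 0.41 to 1.03 (Itpr2), 0.50 to 0.82 (Itpr3) and 0.40 to 0.49 (Atp2a2). The comparisons share libraries: DD in the first and second, DD + rDKK3 in the second and last, and WT in the first and last.

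**Figure D2:**
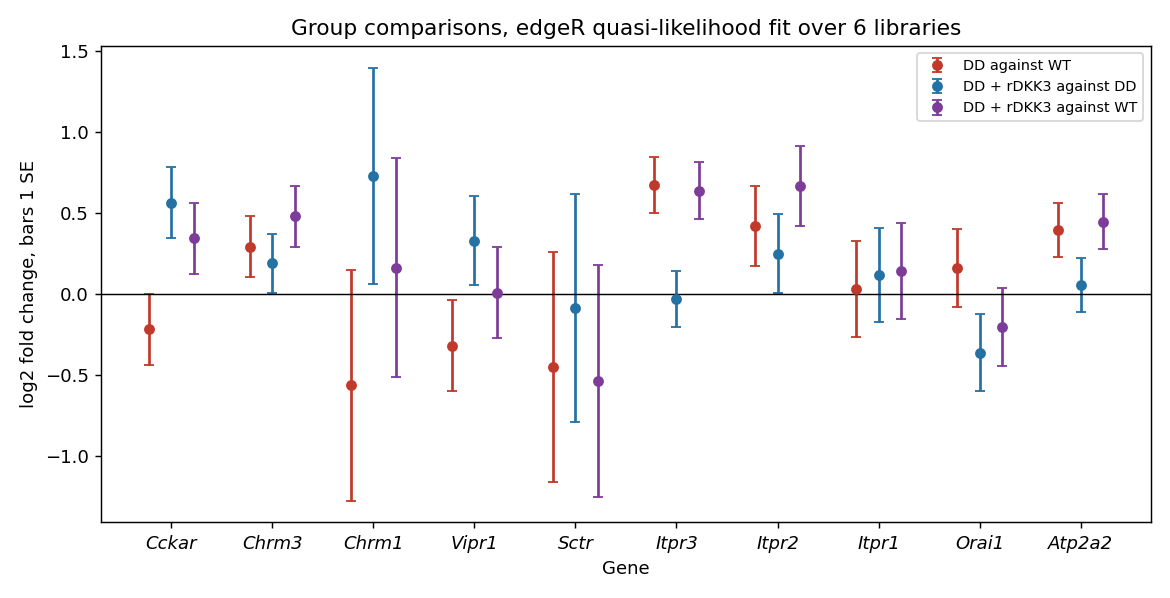
Log2 fold change with 1 standard error (vertical axis) for each of the 10 genes in the 3 comparisons, from 1 edgeR fit over 6 libraries, with Sctr from the fit without the filter. Itpr3 is 0.67 in DD against WT and -0.03 in DD + rDKK3 against DD, Cckar is -0.22 and 0.56, and the bars of Chrm1 and Sctr are the widest.

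Cckar (ENSMUSG00000029193.8, GRCm39 chr5:53855118-53865047), the receptor for cholecystokinin, was the most abundant of the receptors in every library. Its levels were 746.8, 571.7, 612.8, 518.9, 733.6 and 937.1 CPM. The 2 DD values lay at the low end and overlapped WT, and both DD + rDKK3 values lay above both DD values. Relative to WT the log2 fold change in DD was -0.22 (SE 0.22 and adjusted p = 0.705, edgeR). Adding rDKK3 to DD acini went with a mean of 835.4 CPM ± 144 (SD, n = 2) against 565.8 ± 66.3 in DD, 1.48-fold, with a log2 difference of 0.56 (SE 0.22 and unadjusted p = 0.0351, adjusted p = 1 by edgeR). That difference was 0.27 without DD 2 and DD + rDKK3 2, 0.37 without DD + rDKK3 2 alone and 0.45 without DD 2 alone (all by edgeR). In the first of these fits both groups held 1 library, and in the others 1 group did. DD + rDKK3 stood 0.34 above WT (SE 0.22 and adjusted p = 0.438, edgeR), and the ranges overlapped.

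Cckar is known as an acinar gene in the rodent pancreas, and its level was set against the 18 acinar markers. Per 1000 CPM of summed acinar markers it measured 3.74, 3.77, 4.82, 4.56, 4.82 and 7.53 CPM. On this scale both WT values were below all 4 values of the Dkk3-null cultures, whereas on the CPM scale they were not, and DD + rDKK3 2 was the highest on both. The acinar marker sums were 199800 and 151700 CPM in WT and 113700 to 152300 CPM in the Dkk3-null cultures. Dividing by them lowers WT against most of the others, so the separation on this scale is not a result about Cckar alone. The median log2 fold change of the acinar markers was -0.59 in DD against WT, with 7 of 18 lower and 0 higher at an unadjusted p under 0.05 by edgeR (8.26% of all genes). In DD + rDKK3 against DD the median was 0.23, with 17 of 18 above 0 and 0 of 18 at that level (1.98% of all genes). Against WT, DD + rDKK3 had a median of -0.325, with 3 lower and 1 higher at that level (15.3% of all genes). None of the 18 was called in any comparison. The part of the acinar markers in the Cckar values was not tested. Over the 6 libraries, the 5 genes whose log2 CPM followed Cckar most closely, of 8837 genes with a mean log2 CPM of at least 3, were Limk2 (Pearson r = 0.978), Ssbp3 (0.96), Erap1 (0.956), Zfp212 (0.955) and Smad1 (0.953). They are a description over 6 libraries that share groups, and their own ranges were narrower, with Limk2 from 44.39 to 59.54 CPM.

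Chrm3 (ENSMUSG00000046159.17, chr13:9925522-10410883), the main muscarinic receptor of acinar cells, measured 11.1, 11.87, 15.62, 12.46, 15.58 and 16.4 CPM. Both WT libraries were below the other 4, with DD 2 only slightly above WT 2. Group means (± SD, n = 2) were 11.49 CPM ± 0.544 for WT, 14.04 ± 2.23 for DD and 15.99 ± 0.582 for DD + rDKK3. DD stood 0.29 above WT on the log2 scale (SE 0.19 and adjusted p = 0.606, edgeR), or 0.14 without DD 1. DD + rDKK3 stood 0.19 above DD (SE 0.18 and adjusted p = 1, edgeR; 0.0353 without DD 2) and 0.48 above WT (SE 0.19 and unadjusted p = 0.0364, adjusted p = 0.321, edgeR). Without DD 2 and DD + rDKK3 2, which left 1 DD + rDKK3 library, the last difference was 0.44. Per kilobase, Cckar exceeded Chrm3 by 46.2 to 79.2 times, with the lowest ratio in DD 1 and the highest in WT 1.

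Chrm1 (ENSMUSG00000032773.10, chr19:8641153-8660951), the other Gq-coupled muscarinic receptor reported in acinar cells, was near the limit of counting. It had 9, 5, 6, 9, 9 and 16 counts, or 0.28 to 0.88 CPM, where 3 counts would be 0.142 to 0.2947 CPM. The exact 95% Poisson intervals of the lowest and the highest library, 0.104 to 0.618 and 0.404 to 1.68 CPM, overlapped. For DD against WT the log2 fold change was -0.57 (SE 0.71) and 0.73 for DD + rDKK3 against DD (SE 0.67), and no difference was detectable at this depth. Against WT, DD + rDKK3 stood at 0.16 (SE 0.68), which turned to -0.32 without DD 2 and DD + rDKK3 2.

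The Gs-coupled receptors gave no separation of groups. Vipr1 (ENSMUSG00000032528.6, chr9:121471782-121502020), a receptor for vasoactive intestinal peptide, measured 5.6, 7.445, 6.105, 4.35, 7.394 and 5.755 CPM, and every pair of groups overlapped. For DD against WT the log2 fold change was -0.32 (SE 0.28 and adjusted p = 0.673), 0.33 for DD + rDKK3 against DD (SE 0.28 and adjusted p = 1) and 0.01 for DD + rDKK3 against WT (SE 0.28 and adjusted p = 0.993, all by edgeR). Sctr (ENSMUSG00000026387.16, chr1:119934624-119991266), the secretin receptor, had 10, 4, 8, 8, 9 and 6 counts, or 0.28 to 0.98 CPM. Its log2 fold change without the filter was -0.45 (SE 0.71), -0.09 (SE 0.70) and -0.54 (SE 0.72) in the 3 comparisons, and the second turned to 0.32 without DD 2 and DD + rDKK3 2. Secretin receptors are also a feature of duct cells. The 12 duct markers, all detected in every library, summed to 2645 and 2044 CPM for WT, 1944 and 2874 CPM for DD and 1871 and 2041 CPM for DD + rDKK3. Both DD + rDKK3 sums lay below both WT sums, and DD overlapped both groups. In DD + rDKK3 against WT, 2 of the 12 were higher and 3 lower at an unadjusted p under 0.05 by edgeR (15.3% of all genes). At that level 1 was higher and 0 lower in DD against WT (8.26% of all genes). In DD + rDKK3 against DD, 0 were higher and 2 lower (1.98% of all genes). The part of the duct markers in the Sctr values was not tested.

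Among the IP3 receptor genes, Itpr3 differed most between DD and WT. Itpr3 (ENSMUSG00000042644.10, chr17:27276278-27341197), which encodes one of the 2 IP3 receptor types that dominate in acinar cells, measured 52.66, 66.17, 102.9, 86.24, 92.9 and 91.81 CPM. Both WT libraries lay below all 4 Dkk3-null libraries, and the DD + rDKK3 values lay between the DD values. Group means (± SD, n = 2) were 59.41 CPM ± 9.55 for WT, 94.59 ± 11.8 for DD and 92.35 ± 0.773 for DD + rDKK3, so DD was 1.59-fold and DD + rDKK3 1.55-fold of WT. The log2 fold change of DD against WT was 0.67 (SE 0.18 and unadjusted p = 0.00554, adjusted p = 0.586, edgeR), that of DD + rDKK3 against WT 0.64 (SE 0.18 and adjusted p = 0.321) and that of DD + rDKK3 against DD -0.03 (SE 0.17 and adjusted p = 1). Without DD 2 and DD + rDKK3 2, the difference of DD from WT was 0.79. Without the filter on low counts, edgeR called Itpr3 in DD against WT (adjusted p = 0.0145) and in DD + rDKK3 against WT (adjusted p = 0.0227), in a fit that called 528 and 788 of 26506 genes.

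Itpr2 (ENSMUSG00000030287.16, chr6:146009797-146403721), the other dominant acinar IP3 receptor type, measured 35.66, 55.28, 71.6, 50.32, 70.72 and 74.01 CPM. DD 2 lay below WT 2, so those groups overlapped, and both DD + rDKK3 libraries lay above both WT libraries. Group means (± SD, n = 2) were 45.47 CPM ± 13.9 for WT, 60.96 ± 15 for DD and 72.36 ± 2.32 for DD + rDKK3. Against WT the log2 fold change was 0.42 in DD (SE 0.25 and adjusted p = 0.595) and 0.67 in DD + rDKK3 (SE 0.25 and unadjusted p = 0.0284, adjusted p = 0.321, edgeR), and it was 0.25 in DD + rDKK3 against DD (SE 0.24 and adjusted p = 1). Single WT libraries moved these values: without WT 1 they were 0.16 and 0.41, without WT 2 0.78 and 1.03, and without DD 1 the DD difference was 0.17. Without DD 2 and DD + rDKK3 2 the difference between DD + rDKK3 and DD turned to -0.01. Without the filter, edgeR called Itpr2 in DD + rDKK3 against WT (adjusted p = 0.0132).

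Itpr1 (ENSMUSG00000030102.12, chr6:108190057-108528070), the IP3 receptor best known from neurons, measured 5.698, 9.553, 8.802, 6.82, 9.507 and 7.422 CPM. The WT libraries spanned nearly the whole range, and no pair of groups separated. For DD against WT the log2 fold change was 0.03 (SE 0.30 and adjusted p = 0.976), 0.11 for DD + rDKK3 against DD (SE 0.29 and adjusted p = 1) and 0.14 for DD + rDKK3 against WT (SE 0.30 and adjusted p = 0.821, all by edgeR). Markers of nerve and Schwann cells summed to 50.03 to 64.27 CPM, with Sox10 at 0 in 5 of 6 libraries.

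The 3 IP3 receptor transcripts were also set against their sum. In CPM per kilobase the sum was 9.11 and 12.5 for WT, 17.7 and 14.1 for DD, and 16.6 and 16.5 for DD + rDKK3, so both WT libraries were below the other 4. Itpr3 made up 61.6% ± 3.75 of the WT sum, 66.4% ± 2.54 of the DD sum and 62% ± 0.292 of the DD + rDKK3 sum (SD, n = 2). The share of Itpr2 was 31.3% ± 2.74, 28.6% ± 2.46 and 32.8% ± 1.17, and that of Itpr1 7.04% ± 1, 4.97% ± 0.0849 and 5.17% ± 0.882. For Itpr1, WT (6.33% and 7.75%) lay above DD (5.03% and 4.91%) and DD + rDKK3 (5.79% and 4.55%). For Itpr3, DD (64.6% and 68.2%) lay above WT (64.3% and 59%) by a narrow margin, and no share was tested. With canonical transcript lengths the Itpr3 share was 59.3%, 64.1% and 59.6%, and with no length correction 53.3%, 58.1% and 53.3%.

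**Figure D3:**
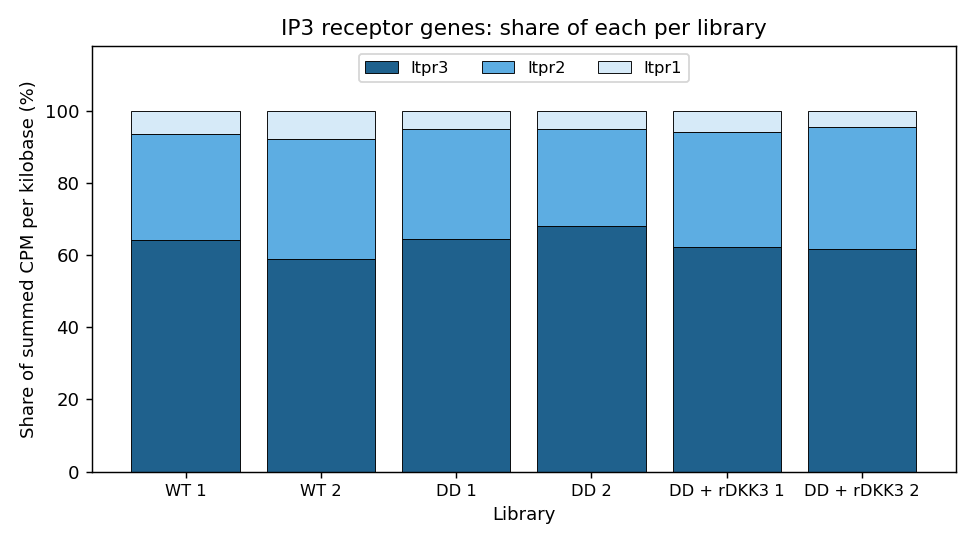
Share of each IP3 receptor gene in the summed CPM per kilobase of the 3 (vertical axis, percent) in each of the 6 libraries (bars, stacked from 0). Itpr3 takes 59% to 68.2%, Itpr2 26.9% to 33.7% and Itpr1 4.55% to 7.75%.

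Atp2a2 (ENSMUSG00000029467.16, chr5:122591576-122640288), which encodes the SERCA2 pump, measured 220, 227.3, 319.3, 267.5, 294.3 and 314.2 CPM. The WT libraries were close to each other and lay below the 4 Dkk3-null libraries, whose 2 groups overlapped. Group means (± SD, n = 2) were 223.6 CPM ± 5.19 for WT, 293.4 ± 36.6 for DD and 304.2 ± 14.1 for DD + rDKK3. The log2 fold change was 0.39 for DD against WT (SE 0.17 and unadjusted p = 0.0498, adjusted p = 0.586), 0.44 for DD + rDKK3 against WT (SE 0.17 and unadjusted p = 0.0311, adjusted p = 0.321) and 0.05 for DD + rDKK3 against DD (SE 0.17 and adjusted p = 1, all by edgeR). Without DD 2 and DD + rDKK3 2 these values were 0.51, 0.40 and -0.11, with 1 library each in DD and DD + rDKK3. Atp2a3, which encodes SERCA3, had 0.79 to 1.967 CPM, and per kilobase Atp2a2 exceeded it by 60.9 to 147 times.

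Orai1 (ENSMUSG00000049686.15, chr5:123153137-123168519), the pore of the store-operated calcium channel, measured 18.57, 11.94, 18.41, 15.4, 12.52 and 13.77 CPM. WT 1 and WT 2 were the highest and the lowest of the 6, and both DD + rDKK3 libraries lay below both DD libraries. The means were 16.91 CPM ± 2.13 (DD) and 13.14 ± 0.885 (DD + rDKK3; SD, n = 2), a log2 difference of -0.36 (SE 0.24 and adjusted p = 1, edgeR). With the replicate number as a block within the 4 Dkk3-null libraries it was -0.37 (unadjusted p = 0.0415, adjusted p = 0.618, edgeR). For DD against WT the log2 fold change was 0.16 (SE 0.24 and adjusted p = 0.813) and -0.21 for DD + rDKK3 against WT (SE 0.24 and adjusted p = 0.663). Stim1, the reticulum sensor that opens ORAI1, was at 101 to 127.9 CPM, with a log2 fold change of 0.05 in DD against WT (SE 0.17).

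Chrm3, Itpr2, Itpr3 and Atp2a2 followed one another over the 6 libraries, with Pearson correlations of log2 CPM from 0.869 (Itpr2 with Atp2a2) to 0.956 (Chrm3 with Atp2a2). These 4 were the genes with an unadjusted p under 0.05 by edgeR in DD + rDKK3 against WT. That choice itself favours high correlations. Cckar correlated with Itpr3 at 0.01 and with Atp2a2 at 0.30. The 6 points share 3 groups and their library preparation, and these coefficients are a description. Scaled to 1000 CPM of acinar markers, Itpr3 measured 0.263, 0.436, 0.809, 0.758, 0.61 and 0.738 CPM, and Atp2a2 1.1, 1.5, 2.51, 2.35, 1.93 and 2.53 CPM. WT was below the other 4 for both, as before scaling. The WT acinar marker sums (199800 and 151700 CPM) were not clearly below any other (113700 to 152300 CPM). The scaling could therefore hardly change that order. The part of the lower acinar marker level in these differences was not tested.

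**Figure D4:**
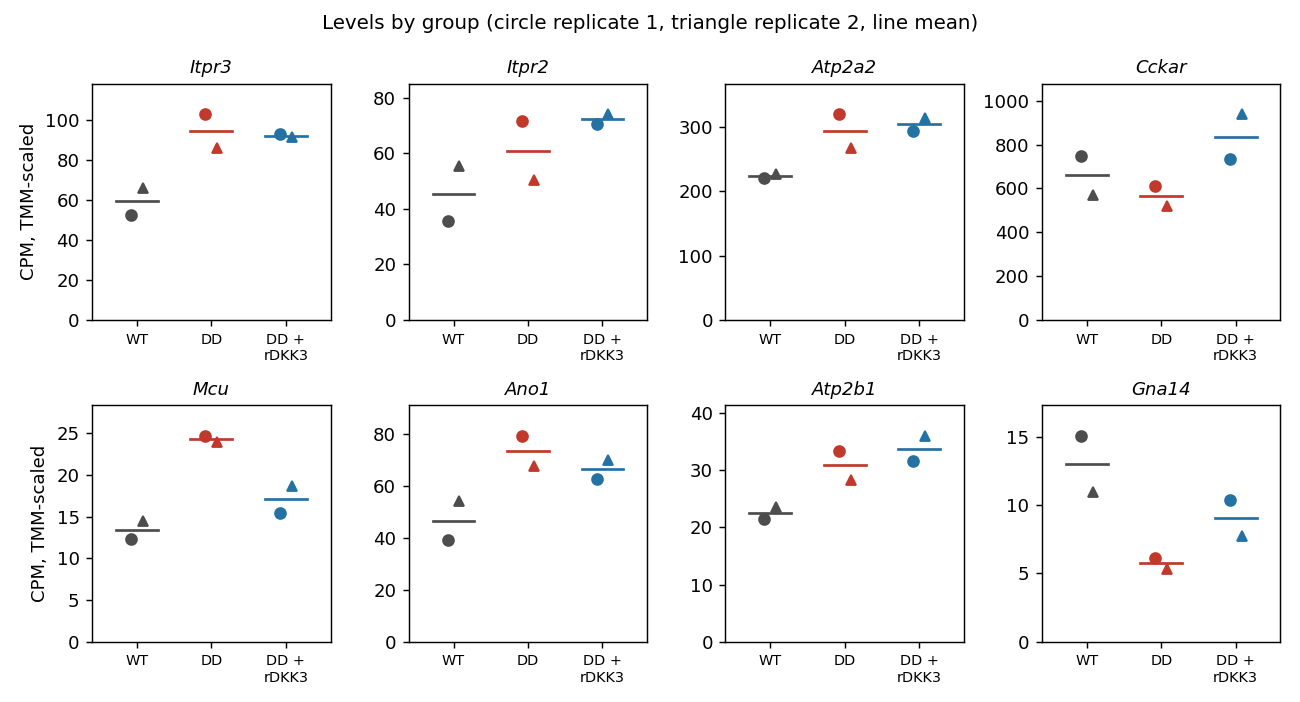
TMM-scaled CPM (vertical axes from 0) of 4 of the 10 genes in the upper row and 4 other calcium signalling genes in the lower row, by group. Points are the 2 libraries of each group and lines their means. Both WT points of Itpr3, Atp2a2, Mcu, Ano1 and Atp2b1 lie below all 4 Dkk3-null points, and both WT points of Gna14 lie above them. The 4 genes of the lower row were named by a rule that asked for separate groups in DD against WT.

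The rest of the pathway was read from 9 lists of 139 genes, of which 119 passed the filter. Most genes named from these lists were picked by a rule that asked for separate groups. Their lack of overlap in the comparison that named them was therefore fixed by that choice. None of the 119 was called in any comparison by edgeR or limma-voom. DESeq2 called 1 (Mcu in DD against WT) of the 111, 119 and 42 to which it gave an adjusted p in the 3 comparisons. EdgeR without the filter called 6, 0 and 9 of 136 in the 3 comparisons. Of those 6, P2rx7, Adcy7 and Nfatc4 were highest in DD 2 and DD + rDKK3 2, the libraries with the highest fibroblast markers. Gna14, Mcu and Ano1 were not. The part of fibroblasts in these calls was not tested. In the edgeR fit with the filter, the smallest adjusted p was 0.442 in DD against WT, 1 in DD + rDKK3 against DD and 0.321 in DD + rDKK3 against WT. At an unadjusted p under 0.05 there were 12 in DD against WT (10 higher and 2 lower, 10.1% of the 119 against 8.26% of all genes), 4 in DD + rDKK3 against DD (3 higher and 1 lower, 3.36% against 1.98%) and 20 in DD + rDKK3 against WT (18 higher and 2 lower, 16.8% against 15.3%). The median log2 fold change of the 119 was 0.15, 0.02 and 0.12, and that of all genes 0.02, -0.003 and 0.02.

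Upstream of IP3, 12 of 15 genes of Gq, phospholipase C and protein kinase C were tested, with 2 higher and 1 lower in DD against WT at an unadjusted p under 0.05. Gna14, a Gq-family alpha subunit, measured 15.03, 10.96, 6.152, 5.35, 10.4 and 7.745 CPM. The DD values were lowest, the WT values highest and the DD + rDKK3 values between them, with no overlap. The separation of DD from each other group was a condition for naming Gna14, so it is not a separate result. For DD against WT the log2 fold change was -1.17 (SE 0.25 and unadjusted p = 0.00183, adjusted p = 0.442) and 0.66 for DD + rDKK3 against DD (SE 0.25 and adjusted p = 1, edgeR), the latter 0.41 without DD + rDKK3 1. The broadly expressed subunits Gnaq and Gna11 measured 26.23 to 40.07 and 80.64 to 100.2 CPM, with log2 fold changes of 0.27 (SE 0.18) and 0.16 (SE 0.16) in DD against WT. Prkcd, a protein kinase C known for its part in acinar responses to cholecystokinin, stood 0.46 above WT in DD (SE 0.15 and adjusted p = 0.586) and 0.55 above WT in DD + rDKK3 (SE 0.15 and adjusted p = 0.321). Plcb4, a phospholipase C, measured 19.16 and 26.55 CPM in WT and 29.05 and 45.07 CPM in DD + rDKK3, a log2 difference of 0.69 (SE 0.25 and adjusted p = 0.321) that was 0.35 without DD + rDKK3 2.

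In the cyclic AMP branch, 20 of 22 genes were tested. Prkar2a, a regulatory subunit of protein kinase A, stood 0.44 above WT in DD (SE 0.16 and adjusted p = 0.586, edgeR). Pde4a, which breaks down cyclic AMP, measured 11.79, 13.98, 18.17, 14.64, 22.45 and 22.75 CPM, with groups that did not overlap. The separation of DD + rDKK3 from each other group was a condition for naming Pde4a. Its log2 fold change was 0.46 in DD + rDKK3 against DD (SE 0.18 and adjusted p = 1) and 0.81 for DD + rDKK3 against WT (SE 0.19 and unadjusted p = 0.00285, adjusted p = 0.321). Adcy6, an adenylyl cyclase that calcium inhibits, stood 0.65 above WT in DD + rDKK3 (SE 0.19 and adjusted p = 0.321). Of 14 other secretagogue and purinergic receptors tested out of 19, 0 in DD against WT and 0 in DD + rDKK3 against DD had an unadjusted p under 0.05, and 1 was higher at that level in DD + rDKK3 against WT (the ATP and ADP receptor gene P2ry1, at or near the floor of 3 counts in WT and at most 1.29 CPM in any library, adjusted p = 0.321 by edgeR). Of 10 desensitisation genes tested out of 11, Arrb1, which encodes an arrestin that uncouples receptors, stood 0.37 above WT in DD (SE 0.15 and adjusted p = 0.586) and 0.55 above WT in DD + rDKK3 (SE 0.15 and adjusted p = 0.321).

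Among 14 of 17 partners of IP3 receptors and other reticulum channels, none had an unadjusted p under 0.05 in any comparison, and the ryanodine receptor genes Ryr1, Ryr2 and Ryr3 did not pass the filter. Of 12 of 14 calcium entry genes, Piezo1, a stretch-activated channel, stood 0.71 above WT in DD + rDKK3 (SE 0.27 and adjusted p = 0.321), 0.38 without DD + rDKK3 2. Orai2 stood 0.43 above WT (SE 0.18 and adjusted p = 0.323). Of 7 of 11 pump and exchanger genes, Atp2b1, which encodes a pump that expels calcium across the plasma membrane, measured 21.42, 23.6, 33.41, 28.34, 31.58 and 35.93 CPM. Both WT libraries were the lowest, and the log2 fold change was 0.46 in DD (SE 0.16 and adjusted p = 0.586) and 0.58 in DD + rDKK3 (SE 0.16 and adjusted p = 0.321, edgeR).

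Mcu, the pore of the mitochondrial calcium uniporter, had the smallest p of the pathway genes in DD against WT. It measured 12.28, 14.54, 24.66, 23.93, 15.47 and 18.72 CPM, with DD above all other libraries and DD + rDKK3 above WT. The separation of DD from each other group was a condition for naming Mcu. The log2 fold change was 0.85 for DD against WT (SE 0.18 and unadjusted p = 0.00172, adjusted p = 0.442) and -0.51 for DD + rDKK3 against DD (SE 0.18 and unadjusted p = 0.0221, adjusted p = 1, edgeR). DESeq2 called Mcu in DD against WT (adjusted p = 0.0474). All 10 mitochondrial uptake genes were tested, and in DD + rDKK3 against WT the uniporter regulator Mcur1 (0.43, SE 0.18, adjusted p = 0.323) and the exchanger Letm1 (0.41, SE 0.17, adjusted p = 0.322) were the other 2 named, Mcur1 at 0.19 without DD + rDKK3 2.

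Downstream of calcium, all 20 genes of calmodulin, calcineurin and calcium effectors were tested, with 4 higher and 1 lower at an unadjusted p under 0.05 in DD against WT. Ano1, the calcium-activated chloride channel of the acinar apical membrane, measured 39.2, 54.08, 79.22, 67.55, 62.9 and 70.19 CPM, with both WT libraries lowest, and DD stood 0.65 above WT on the log2 scale (SE 0.19 and unadjusted p = 0.0104, adjusted p = 0.586). Nfatc4, a calcineurin-dependent transcription factor, measured 0.6877, 0.8429, 1.562, 5.232, 1.743 and 3.711 CPM. Its highest values were in DD 2 and DD + rDKK3 2, the libraries with the highest fibroblast markers, and the DD difference of 2.12 (SE 0.68 and adjusted p = 0.586) was 1.01 without DD 2; the part of fibroblasts in it was not tested. Nfatc1 and Nfatc3 stood 0.70 (SE 0.18) and 0.50 (SE 0.15) above WT in DD + rDKK3, both with an adjusted p of 0.321, and Nfatc2 stood 0.71 above DD in DD + rDKK3 (SE 0.28 and adjusted p = 1, edgeR).

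**Figure D5:**
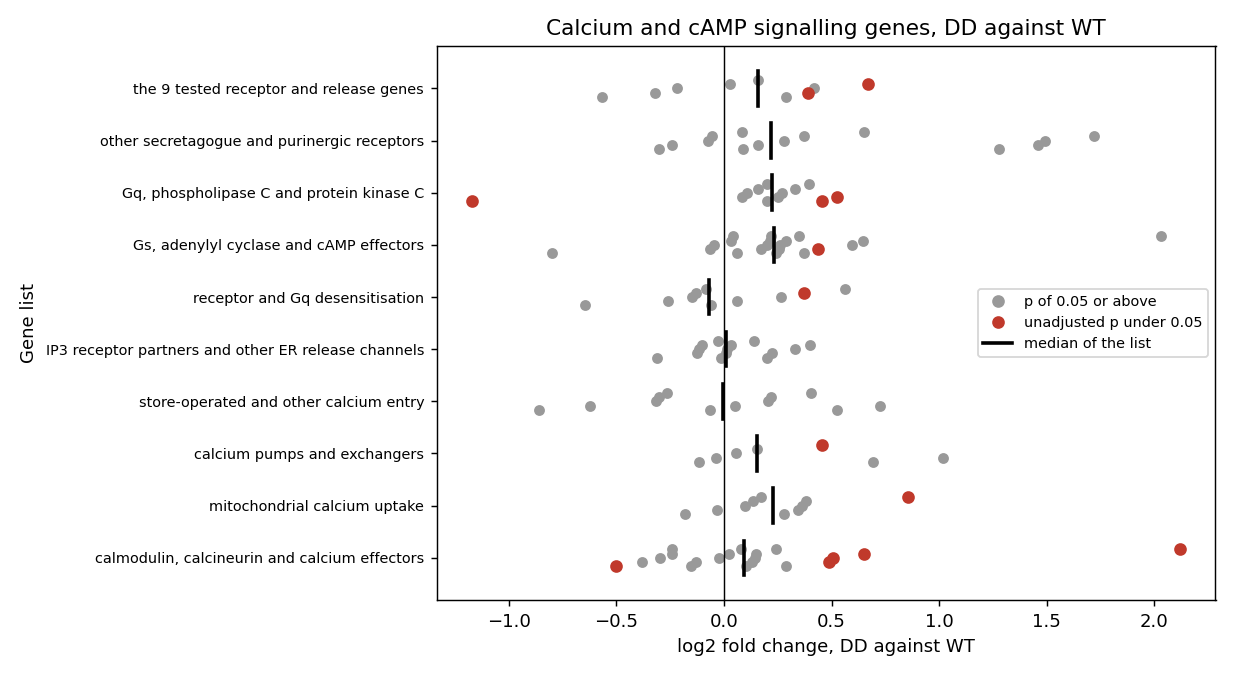
Log2 fold change of DD against WT (horizontal axis) for the 9 tested receptor and release genes and for the genes of the 9 pathway lists (rows), with genes at an unadjusted p under 0.05 in red and the median of each list as a black bar. Of the 119 pathway genes, 10 red points lie right of 0 and 2, Gna14 and Camk1, left of it.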

How the data were processed

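The deposited values are raw counts of read pairs per gene in 6 libraries. Per the study's methods, the authors aligned strand-specific paired-end reads with STAR (2.7.9a) to GRCm39 with the basic GENCODE annotation, counted alignments over exons in union mode, summed them per gene without pooling replicates, and ran DESeq2 (1.38.0). Counting by strand keeps antisense genes apart, and reads in exons that overlap on 1 strand are dropped. Same-strand neighbours of the 10 genes had at most 6 counts, which does not show how many reads were dropped. Here 92 spike-in rows, all at 0, were left out. Counts were filtered with filterByExpr (minimum count 10, minimum total 15), scaled by TMM and fitted with edgeR (4.0.16, R 4.3.3) quasi-likelihood over all 6 libraries with group as the only term (3 residual degrees of freedom), and two-sided p-values were adjusted by Benjamini-Hochberg over 14738 genes. CPM used TMM-scaled totals, log2 CPM a prior count of 2, and lengths a later GENCODE release on GRCm39. Poisson intervals and the floor of 3 counts reflect counting error alone, as there were no molecular identifiers.

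The genes and lists were chosen with earlier results of these data known. Named pathway genes are at most 2 per list and comparison. They had the smallest p among genes with an unadjusted p under 0.05, a mean log2 CPM of 0 or more and separate groups. Camk1, Gnaq, Gna11, P2ry1, P2rx7, Adcy7, Stim1, Atp2a3 and Ryr1 to Ryr3 were named after their values were seen. Chi-square per degree of freedom between libraries of a group was 22.96 to 65.68, far above sampling noise. Same-numbered libraries were not treated as pairs, though the titles of DD and DD + rDKK3 share a name: their deviations correlated at -0.387 (WT and DD), -0.247 (WT and DD + rDKK3) and 0.65 (DD and DD + rDKK3). On simulated counts for DD against WT (14636 genes), 36% of genes changed by a log2 fold of 1 were called and 100% of those changed by 2. The changed genes were drawn from those with higher counts, and every gene was given the same spread. These shares therefore do not apply to genes at few counts such as Chrm1 and Sctr. The simulated libraries also held no difference in cell types, unlike the real ones. For the other genes the shares may therefore be too high. Alternatives were DESeq2 (1.42.0), limma-voom (3.58.1), other scalings and filters, a replicate block and leaving out libraries. The result of 1 marker gene is left out.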

Additional observations from a re-analysis of the deposited data

How the results depend on the processing

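Depth limits Chrm1 and Sctr, which had 4 to 16 counts per library, and 2 libraries per group limit all 10 genes. None of the 10 was called when any 1 library was left out, with DESeq2 size factors, library size alone, limma-voom or only the libraries compared, nor by DESeq2 among the 8, 9 and 4 of 9 with an adjusted p. A group left with 1 library is assumed to vary like the others. Without the filter, edgeR called 528, 73 and 788 genes (DD against WT, DD + rDKK3 against DD, DD + rDKK3 against WT), among them 1 of the 10 (Itpr3), 0, and 2 (Itpr2 and Itpr3); the cause was not tested. The DESeq2 test called 80, 5 and 74 genes, and limma-voom called 3 in DD + rDKK3 against WT, against 6, 0 and 7 in the edgeR fit. Leaving out 1 library gave 2 to 6, 0 and 2 to 9 genes called (2 in DD against WT without WT 1, WT 2 or DD 1, and 2 in DD + rDKK3 against WT without WT 1 or WT 2). Scaling by library size alone shifted the median of all genes to 0.22, -0.04 and 0.18, and Cckar in DD against WT to 0.0019, or -0.22 relative to that median.

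With the replicate block over all 6 libraries 7, 0 and 5 genes were called and none of the 10, and Vipr1 in DD + rDKK3 against WT was -0.0142. A replicate block within the 4 Dkk3-null libraries called 194 genes in DD + rDKK3 against DD and none of the 10, with Cckar at 0.55 (unadjusted p = 0.00725, adjusted p = 0.271) and Orai1 at -0.37 (unadjusted p = 0.0415, adjusted p = 0.618). With the WT numbers crossed in the block, chosen after seeing the data, 296, 29 and 566 genes were called, and 1, 0 and 2 of the 10. Vipr1 in DD + rDKK3 against WT was also -0.000596 by DESeq2 and -0.0103 by limma-voom.

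Without DD 2 and DD + rDKK3 2, also chosen after seeing the data, 14 genes were called in DD against WT, and 4 values changed sign: Sctr (0.32), Itpr2 (-0.0109) and Atp2a2 (-0.11) in DD + rDKK3 against DD, and Chrm1 (-0.32) in DD + rDKK3 against WT. Leaving out 1 library changed the sign of these log2 fold changes, given as lowest and highest. In DD against WT they were Cckar (-0.39 to 0.00014), Chrm1 (-1.12 to 0.20), Sctr (-1.15 to 0.62), Itpr1 (-0.27 to 0.46) and Orai1 (-0.13 to 0.52). In DD + rDKK3 against DD they were Sctr (-0.39 to 0.16), Itpr1 (-0.0881 to 0.29), Itpr3 (-0.155 to 0.0762) and Atp2a2 (-0.0686 to 0.163). In DD + rDKK3 against WT they were Chrm1 (-0.40 to 0.93), Sctr (-1.23 to 0.54), Vipr1 (-0.19 to 0.24), Itpr1 (-0.15 to 0.58) and Orai1 (-0.49 to 0.16). Itpr3 in DD against WT stayed between 0.53 and 0.85 when 1 library was left out with an unadjusted p under 0.05 each time, under the assumption above, and Atp2a2 between 0.28 and 0.52 with that level only without DD 2.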
